A study of Mus musculus with 8 samples.

Results

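The AMPA and kainate receptor subunit genes are described here in dorsal root ganglia (DRG) of mouse embryos at E18.5. The members were taken by gene family, the 4 Gria genes (Gria1 to Gria4, AMPA receptor subunits) and the 5 Grik genes (Grik1 to Grik5, kainate receptor subunits), which makes 9 of the 55414 genes listed. All 9 passed the expression filter, as did 17721 genes in all. Transcripts were measured by bulk RNA-seq in 8 libraries, 4 per group. AD1 OE embryos were AdvillinCre/+;Rosa26Dach1/+, with Cre at the Advillin gene, active in somatosensory neurons, and a Rosa26 Dach1-IRES-EGFP allele that stays silent until Cre cuts out its stop cassette. Control embryos were Advillin+/+;Rosa26Dach1/+, so both groups carried the Rosa26 allele and only AD1 OE carried Cre. The Rosa26 mice had a mixed C57Bl/6J and CD1 background, AD1 OE pups die around birth, and the ganglia hold neurons and glia together. Dach1, a transcriptional regulator, is normally confined to few neuron subtypes by this stage. The comparison asks how transcript levels differ when Dach1 is expressed across the sensory neurons at this stage. Cre, EGFP and a lower Avil level, given below, come together with Dach1 in AD1 OE. No group carried Cre without the Rosa26 allele, so their effects cannot be told apart from those of Dach1.

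AMPA and kainate receptors are ligand-gated cation channels, each built from 4 subunits around a central pore, that open when glutamate binds. Sensory neurons release glutamate onto the spinal cord, and they also carry such receptors themselves, on cell bodies and on central terminals, where kainate receptors tune transmitter release. GluA1 to GluA4 (Gria1 to Gria4) form AMPA receptors in mixed sets. GluK1 to GluK3 (Grik1 to Grik3) can form kainate receptors alone, whereas GluK4 and GluK5 (Grik4 and Grik5) raise agonist affinity and need a partner from GluK1 to GluK3. Calcium entry depends on subunit choice and on RNA editing of the pore: in GluA2, and in part in GluK1 and GluK2, editing by ADAR2 (Adarb1) replaces a glutamine with an arginine at the site called Q/R.

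The coding sequence around that site is shown for 6 members because it is where AMPA receptors with and without GluA2 differ in calcium entry. Each run is 51 bases of the GENCODE M21 transcript, read 5′ to 3′ along the coding strand, and the capitals mark the glutamine codon of the Q/R site.
Gria1: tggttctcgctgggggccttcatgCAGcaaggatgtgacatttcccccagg
Gria2: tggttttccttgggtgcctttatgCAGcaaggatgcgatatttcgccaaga
Gria3: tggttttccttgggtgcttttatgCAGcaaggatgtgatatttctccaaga
Gria4: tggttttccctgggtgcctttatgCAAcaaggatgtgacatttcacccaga
Grik1: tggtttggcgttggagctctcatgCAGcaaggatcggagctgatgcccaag
Grik2: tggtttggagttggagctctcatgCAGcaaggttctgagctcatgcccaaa
On the GRCm38 build the capital codon lies at chr11:57243094-57243096 (plus strand) in exon 11 of 16 of Gria1, and at chr3:80706911-80706913 (minus strand) in exon 11 of 16 of Gria2. In Grik1 it lies at chr16:87940542-87940544 (minus strand), in exon 13 of 18, and in Grik2 at chr10:49244329-49244331 (minus strand), in exon 12 of 16. The codon was CAG in 8 of the 9 members and CAA in Gria4. Of the 51 bases, Gria3 shared 48 with Gria2, Gria4 shared 45 and Gria1 shared 41, against 33 for Grik1 and 32 for Grik2. Exons of Gria2, Gria3, Gria4 and Grik4 overlap small RNA genes on the same strand. For each of the 9 members, the coding transcript with the longest reading frame was compared with those of the others. The longest exact run shared between these transcripts was 41 bases, between Gria2 and Gria4. Counts per gene read neither editing nor splice forms, so every value below is the summed transcript level of a gene.

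The libraries held 22339059 to 44025625 counts assigned to genes, and the members held 211 to 30300 counts in a library. Levels are given as CPM, counts scaled by library size after TMM correction, and a gene was called at an adjusted p under 0.005 with an absolute log2 fold change over 0.25 (edgeR quasi-likelihood test, Benjamini-Hochberg adjustment over all tested genes). Dach1 was at 91.5 to 102 in AD1 OE and 30.2 to 33.7 CPM in Control, and Avil, which carries Cre, was at 450 to 478 against 840 to 919 CPM. Of 10 pan-sensory neuron markers 0 were called by edgeR, with a summed level of 8440 to 9220 CPM in AD1 OE against 8874 to 9218 CPM in Control, and of 10 glia markers 0 were called (1085 to 1350 and 1113 to 1366 CPM). The count was also 0 for the 7 fibroblast and muscle markers and for the 2 of 6 sympathetic neuron markers that could be tested. Of 14 spinal cord markers 10 were tested and 0 called, but their summed level was 32.9 CPM in Control replicate 1 and 19.8 CPM in Control replicate 4, against 6.39 to 12.05 CPM in the other libraries. At an unadjusted p under 0.05 the counts were 3 for neuron, 3 for glia, 3 for fibroblast and muscle, 0 for sympathetic and 4 for spinal cord markers, and DESeq2 and limma-voom called 0 in each list. Control replicate 1 also held 14.6 CPM of summed sympathetic neuron markers, against 1.26 to 3.86 CPM elsewhere. By Xist and Y-linked genes, AD1 OE held 3 male libraries and 1 female library (replicate 3), and Control held 1 male library (replicate 4) and 3 female. In bulk ganglia, fewer cells of a type and less RNA per cell cannot be told apart.

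Gria1 was higher in AD1 OE, and it was the only member called by edgeR. Its 4 AD1 OE libraries held 77.4, 78.9, 75.1 and 86.0 CPM, and its 4 Control libraries held 52.6, 57.4, 61.7 and 63.4 CPM (replicates 1 to 4). Every AD1 OE library lay above every Control library. Gria1 (ENSMUSG00000020524, chromosome 11) encodes GluA1, a subunit that is not edited at the Q/R site. The mean was 79.4 ± 4.69 in AD1 OE and 58.8 ± 4.82 CPM in Control (SD, n = 4), a fold change of 1.35 with a 95% interval of 1.23 to 1.48. On the log2 scale this was 0.43, SE 0.06 (edgeR, adjusted p = 9.99e-04). Of all tested genes 2.57% were called, 0.784% higher and 1.78% lower, and the 9 members held 1 called higher and 0 called lower.

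The Gria1 call was lost in 2 of 18 alternative fits. With a sex score as a covariate the log2 fold change was 0.36 (adjusted p = 0.00661), and without Control replicate 2 it was 0.42 (adjusted p = 0.00553). With sex as a 2-level term the log2 fold change was 0.37 and the call held (adjusted p = 0.00373). Within sexes the groups are too small for a test. The single female AD1 OE library held 75.1 CPM, above the 52.6 to 61.7 CPM of the 3 female Control libraries. The 3 male AD1 OE libraries held 77.4 to 86.0 CPM, above the 63.4 CPM of the single male Control library.

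The other AMPA receptor genes did not pass the test. Gria2 held 123, 143, 111 and 135 CPM in AD1 OE against 111, 129, 127 and 133 CPM in Control. The ranges of the groups overlapped almost wholly, and the log2 fold change was 0.03 with a 95% interval of -0.13 to 0.20 (edgeR, adjusted p = 0.865). Gria3, on the X chromosome, encodes a close relative of GluA2 and lay between 28.0 and 32.8 in AD1 OE and between 28.6 and 31.8 CPM in Control. Its log2 fold change of -0.0032 had an interval of -0.13 to 0.13. Gria4 was the steadiest of the family in Control, at 72.8 to 74.3 CPM, and lay between 71.0 and 75.4 CPM in AD1 OE. Its interval, -0.09 to 0.07, was the narrowest among the members. Gria2, Gria3 and Gria4 were called in 0 of 18 alternative fits. Their estimates crossed 0 under some alternatives, and no direction is given for them.

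**Figure D1:**
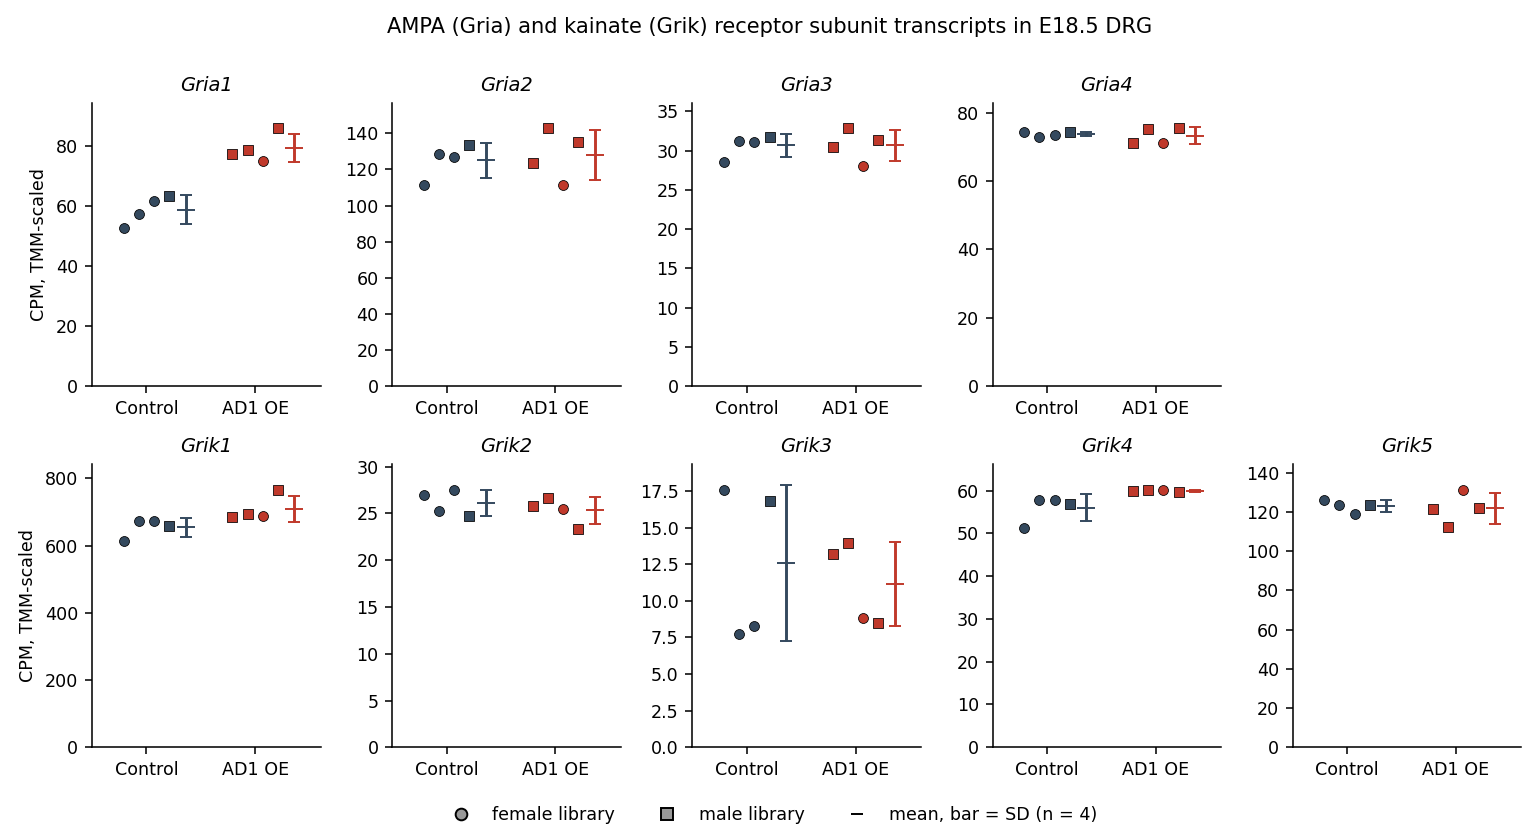
CPM (TMM-scaled, y axis from 0) of the 4 AMPA and 5 kainate receptor subunit genes in the 4 Control and 4 AD1 OE libraries, each point a library in replicate order (circles, female; squares, male), with the mean and SD beside the points. Gria1 in AD1 OE (75.1 to 86.0 CPM) lies above Control (52.6 to 63.4 CPM), while Grik3 splits into libraries below 9 CPM and above 13 CPM in both groups.

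Of the kainate receptor genes, 0 of 5 were called by edgeR, DESeq2 or limma-voom, and 2 (Grik1 and Grik4) had an unadjusted p under 0.05 in edgeR. Grik1 encodes GluK1, the kainate receptor subunit typical of small sensory neurons. It held 685, 694, 689 and 767 CPM in AD1 OE against 613, 673, 673 and 659 CPM in Control. The groups did not overlap, and AD1 OE replicate 4 stood well above the rest. The log2 fold change was 0.11 with an interval of 0.0014 to 0.23, and it did not pass the test (edgeR, unadjusted p = 0.0477, adjusted p = 0.262). Grik4, the gene of the high-affinity subunit GluK4, behaved alike in size. Its AD1 OE libraries lay at 59.7 to 60.2 CPM and its Control libraries at 51.3, 57.7, 57.9 and 56.9 CPM. The AD1 OE values had a coefficient of variation of 0.383%, below the 2.43% that counting error alone would give, and Control replicate 1 was the lowest library. The log2 fold change was 0.10 with an interval of 0.00057 to 0.20 (edgeR, adjusted p = 0.265).

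Grik5, the gene of the other high-affinity subunit GluK5, lay between 112 and 131 in AD1 OE and between 119 and 126 CPM in Control (log2 fold change -0.01, interval -0.11 to 0.08). Grik2, the gene of GluK2, lay between 23.3 and 26.6 in AD1 OE and between 24.7 and 27.6 CPM in Control (log2 fold change -0.04, interval -0.17 to 0.09). Both sets of libraries overlapped. In all, 3 of 9 members had groups that did not overlap, namely Gria1, Grik1 and Grik4, each higher in AD1 OE, against 13.0% of all tested genes with such a separation in either direction. The median log2 fold change of the 9 members was -0.0032, and that of all tested genes was 0.0018.

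Grik3 varied most. It encodes GluK3, a subunit of low glutamate sensitivity. Its libraries held 13.2, 13.9, 8.84 and 8.49 in AD1 OE and 17.6, 7.72, 8.29 and 16.8 CPM in Control. High and low libraries occurred in both groups and in both sexes. The coefficient of variation was 25.7% in AD1 OE and 42.2% in Control, against at most 10.8% for any other member in a group. In Control the high libraries, replicates 1 and 4, held the most summed spinal cord markers (32.9 and 19.8 CPM). In AD1 OE the high libraries, replicates 1 and 2, held the least (7.57 and 6.95 CPM). The part of spinal cord tissue in the Grik3 spread was not tested. The log2 fold change was -0.17 with an interval of -0.76 to 0.41 (edgeR, adjusted p = 0.794), a wide interval that holds differences in either direction.

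Between genes, levels were compared per kb of exon. In Control, Grik1 stood at 97.4 ± 4.20 CPM per kb and Grik5 at 23.8 ± 0.556. Grik1 was thus the highest of the 9 members, and Grik5 the second. Gria4 (11.7 ± 0.108), Gria1 (9.73 ± 0.797), Grik4 (9.38 ± 0.526) and Gria2 (8.04 ± 0.612) followed, then Gria3 (3.11 ± 0.146), Grik2 (1.97 ± 0.102) and Grik3 (1.40 ± 0.593; SD, n = 4). Of the neighbours in this order, the Control libraries overlapped between Gria1 and Grik4 and between Grik2 and Grik3, and in no other adjacent genes. In AD1 OE the order of Gria1 and Gria4 was exchanged, with Gria1 at 12.4 to 14.2 and Gria4 at 11.3 to 12.0 CPM per kb. With the longest protein-coding transcript in place of all exons, Gria1 (13.5 to 15.5) and Gria4 (13.1 to 13.9) overlapped in AD1 OE, and Gria2 stood above Gria1 in the Control means (12.1 and 10.6 CPM per kb).

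Within a library, the share of each subunit does not depend on library scaling. Gria1 made up 36.5, 34.8, 36.9 and 37.4% of the summed AMPA receptor transcripts per kb in AD1 OE and 28.5, 29.2, 30.8 and 30.8% in Control. The groups did not overlap, and the means differed by 6.55 percentage points (5.95 with the longest protein-coding transcript). Since the shares sum to a whole, a higher Gria1 share lowers the others. Gria4 lay at 31.4 to 33.5% in AD1 OE and 34.6 to 38.5% in Control, and Gria3 at 8.35 to 8.88% and 9.46 to 9.76%. Gria2, the subunit that limits calcium entry, lay at 21.2 to 24.5% in AD1 OE and 23.5 to 25.4% in Control, and these ranges overlapped. The ratio of Gria1 to Gria2 in CPM was 0.627, 0.553, 0.676 and 0.635 in AD1 OE and 0.473, 0.447, 0.487 and 0.476 in Control, without overlap. The shares are given as descriptions, with no test.

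The kainate receptor transcripts came mostly from Grik1. It made up 72.7 to 75.9% of the summed kainate receptor transcripts per kb in AD1 OE and 71.2 to 73.7% in Control. Grik5 followed with 15.7 to 18.0% and 17.0 to 19.0%, and Grik4 with 6.65 to 7.26% and 6.71 to 7.14%. Grik2 and Grik3 stayed below 2% in every library. For all 5 genes the shares of the groups overlapped. The shares depend on the length used: with the longest protein-coding transcript, Grik1 made up 79.4 to 82.0% in AD1 OE and 78.1 to 80.2% in Control.

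**Figure D2:**
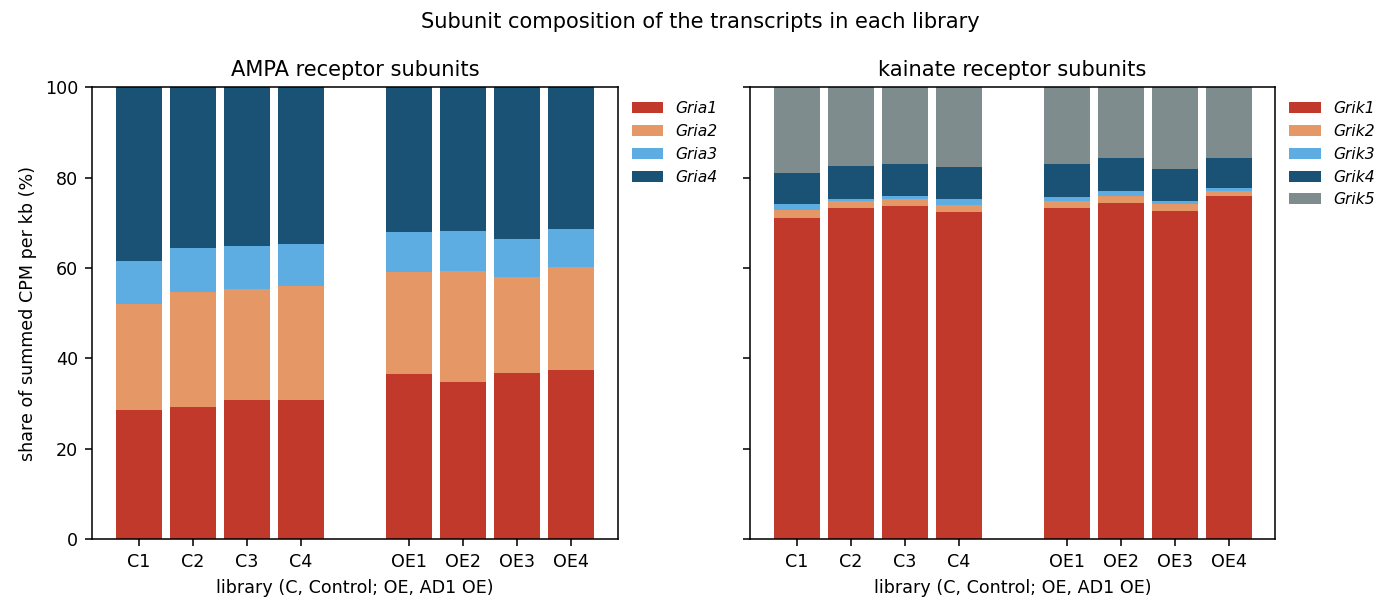
Share of each subunit (y axis, percent of the summed CPM per kb of exon) among the AMPA (left) and kainate (right) receptor transcripts, each bar a library. The Gria1 share is 28.5 to 30.8% in the 4 Control libraries and 34.8 to 37.4% in the 4 AD1 OE libraries, and Grik1 takes 71.2 to 75.9% of the kainate receptor transcripts in the 8 libraries.

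The genes whose log2 CPM ran most like Gria1 over the 8 libraries, among 15517 other genes that averaged 1 CPM or more, were Nol4, Jade2, Rab27b, Asic3 and Dock10. Their Pearson correlations were 0.99, 0.98, 0.98, 0.98 and 0.98 (n = 8 libraries). The 8 points share the group difference, so the correlations are not a test of it. The log2 fold changes of these genes were 0.43 for Nol4, 0.21 for Jade2, 0.63 for Rab27b, 0.40 for Asic3 and 0.26 for Dock10. That all lie above 0 follows from the choice of genes by likeness to Gria1. Among the members themselves, Gria2 and Gria3 ran closest (r = 0.97, n = 8), picked after their values were seen. Of the 15517 other genes, 1 was closer to Gria2 than Gria3 was, and 1 was closer to Gria3 than Gria2 was.

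The genes that work with these receptors were taken as 8 lists with 52 genes, all tested. The lists were chosen with earlier results of these data known. The counts below, and the shares of all tested genes beside them, are therefore descriptions and not a test of the lists. Of these, 3 were called higher (Olfm1, Grip2 and Nptx1) and 5 lower (Cacng2, Cacng5, Neto1, Dlg2 and Epb41l1), against 0.784% higher and 1.78% lower over all tested genes. The median log2 fold change of the 52 was -0.09, with estimates above 0 in 16 and below 0 in 36. Over all tested genes, 8956 estimates were above 0 and 8765 below 0. With the threshold loosened to an adjusted p of 0.05 and any fold change, 13 of the 52 passed, against 6.55% of all tested genes. Groups did not overlap in 7 genes that were higher and 9 that were lower, against 13.0% of all tested genes in either direction.

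Among the 15 auxiliary subunits of AMPA receptors, 2 were lower and 0 higher. Cacng2 encodes stargazin, which brings AMPA receptors to the surface and slows their closing. It held 1.94, 1.87, 2.64 and 2.01 in AD1 OE and 6.75, 4.11, 3.97 and 4.97 CPM in Control. Every Control library was higher, Control replicate 1 most of all. On the log2 scale the difference was -1.22, SE 0.18 (edgeR, adjusted p = 0.00149), and without Control replicate 1, the library with the most spinal cord and sympathetic marker transcripts, it was -1.04 (adjusted p = 0.00167). The Cacng2 call was lost without AD1 OE replicates 1, 2 or 4 or Control replicate 4 (log2 fold changes -1.17, -1.17, -1.19 and -1.21; adjusted p = 0.00826, 0.00768, 0.0073 and 0.00541) and with either sex term (-1.13 and -1.14; adjusted p = 0.00801 and 0.00553). Control replicates 2 and 3 had 6.39 and 9.24 CPM of summed spinal cord markers beside 4.11 and 3.97 CPM of Cacng2, and the part of spinal cord tissue in the Cacng2 difference was not tested. Cacng2 shares 323 exon bases with the antisense gene A730060N03Rik, and whether the counting used strand is not given in the sources used here.

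Cacng5, a type II relative of stargazin, held 23.0 to 25.5 in AD1 OE and 30.2 to 35.2 CPM in Control (log2 fold change -0.40, SE 0.06; edgeR, adjusted p = 0.00181). Its call was lost without AD1 OE replicates 1, 2 or 4 (log2 fold changes -0.41, -0.40 and -0.36; adjusted p = 0.00586, 0.00732 and 0.00753), without Control replicates 2 or 4 (-0.38 and -0.35; adjusted p = 0.00897 and 0.00757) and with the replicate number as a block (-0.40; adjusted p = 0.0104). Per kb of exon the leading auxiliary genes were Cnih2, a cornichon that escorts the receptor, at 50.2 ± 2.04 CPM per kb in Control, and Cacng7, a stargazin relative, at 19.7 ± 0.791. Neither was called (log2 fold changes -0.12 and -0.11). Cacng8, Syndig1 and Shisa9 passed the looser threshold, with log2 fold changes of -0.72, -0.47 and 0.47.

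Both auxiliary subunits of kainate receptors were measured. Neto1 held 14.5, 14.5, 11.3 and 13.7 in AD1 OE and 20.5, 22.2, 23.0 and 24.4 CPM in Control. The highest AD1 OE library lay well below the lowest Control library, and AD1 OE stood at 59.8% of Control (log2 fold change -0.74, SE 0.08; edgeR, adjusted p = 1.92e-04). Neto1 was called in all 18 alternative fits. It shares 219 exon bases with an antisense gene. Neto2, the more abundant relative, at 26.3 ± 0.752 CPM per kb in AD1 OE beside 1.61 ± 0.179 for Neto1, was not called (158 to 168 CPM in AD1 OE, 157 to 185 CPM in Control, log2 fold change -0.11, adjusted p = 0.252). Both proteins alter the gating of kainate receptors.

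**Figure D3:**
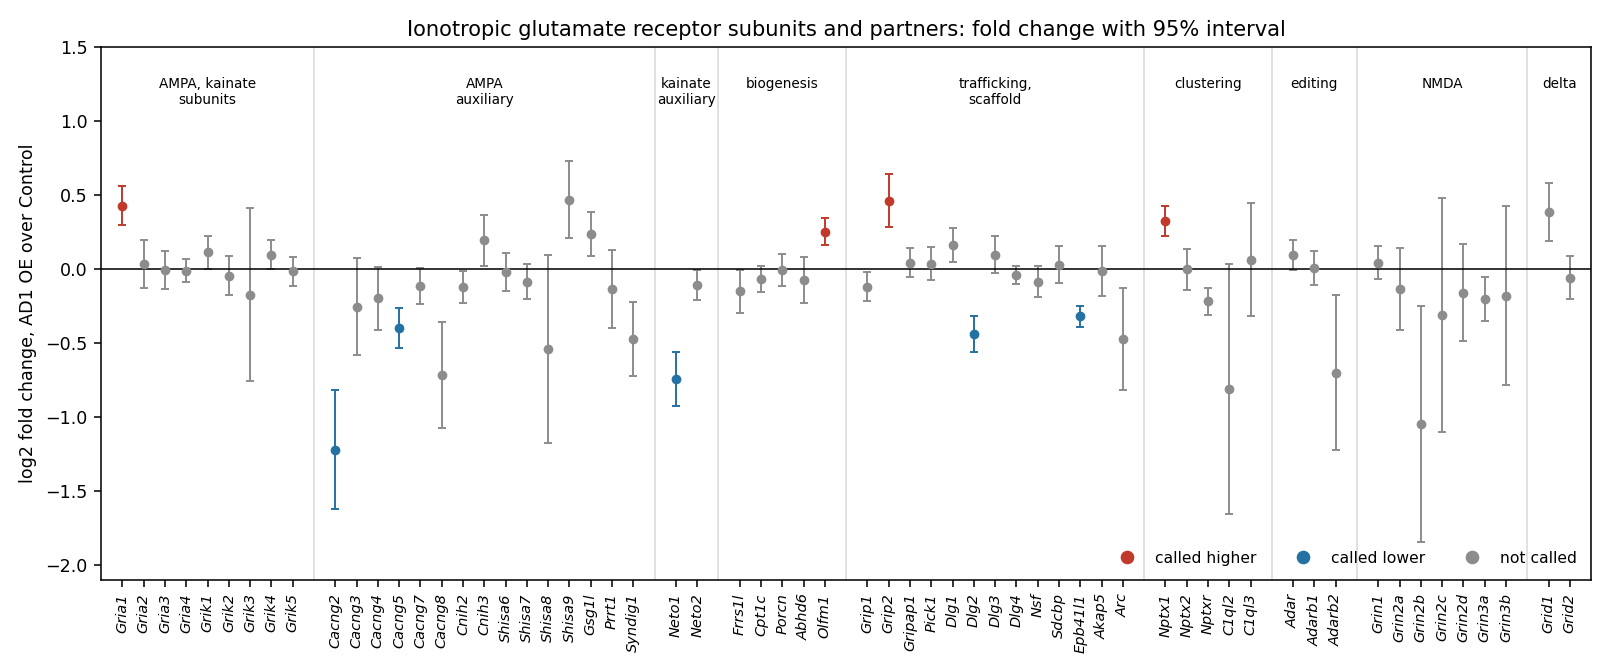
Log2 fold change of AD1 OE over Control (y axis) with its 95% interval for the 9 subunit genes and the 52 genes of the 8 partner lists, red where called higher, blue where called lower and grey where not called. Gria1 at 0.43 is the only coloured point among the 9 subunits, and 8 partner genes are coloured, from Cacng2 at -1.22 to Grip2 at 0.46.

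Of the 5 genes of AMPA receptor biogenesis, 1 was called. Olfm1 encodes a secreted olfactomedin that binds AMPA receptors, and it was the most abundant of its list at 165 ± 3.86 CPM per kb in Control. It held 665 to 721 CPM in AD1 OE against 575 to 605 CPM in Control, without overlap. Its log2 fold change of 0.25 lay at the edge of the threshold (SE 0.04; edgeR, adjusted p = 0.00317). It was lost without AD1 OE replicates 1, 2 or 3 (0.25 each; adjusted p = 0.0142, 0.0103 and 0.00474), without any of Control replicates 1 to 4 (0.25 to 0.27; adjusted p = 0.00552, 0.00657, 0.0135 and 0.0150), with the sex score (0.28; adjusted p = 0.00547) and with the replicate number as a block (0.25; adjusted p = 0.0122). Frrs1l, Cpt1c, Porcn and Abhd6, which act in receptor assembly or surface delivery, had log2 fold changes between -0.15 and -0.0022 and were not called.

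Of the 13 trafficking and scaffold genes, 1 was higher and 2 were lower. Epb41l1 encodes protein 4.1N, which ties GluA1 to the actin skeleton. It held 173 to 184 CPM in AD1 OE against 220 to 228 CPM in Control (log2 fold change -0.32, SE 0.03; edgeR, adjusted p = 1.01e-04). Dlg2 encodes the scaffold PSD-93 and held 23.1 to 26.8 in AD1 OE and 33.2 to 35.3 CPM in Control (log2 fold change -0.44, SE 0.05; adjusted p = 3.86e-04). For both genes all AD1 OE libraries lay below all Control libraries, and both were called in all 18 alternative fits. Grip2, which binds the tails of GluA2 and GluA3, moved the other way, at 27.3, 25.4, 32.7 and 29.9 in AD1 OE and 20.0, 20.7, 23.2 and 19.7 CPM in Control (log2 fold change 0.46, SE 0.08; edgeR, adjusted p = 0.00467). The Grip2 call was lost without AD1 OE replicates 1, 3 or 4 (log2 fold changes 0.49, 0.41 and 0.45; adjusted p = 0.0102, 0.007 and 0.0162) and without Control replicates 1, 2 or 4 (0.45, 0.46 and 0.44; adjusted p = 0.0134, 0.0184 and 0.0177). The other 10, among them Pick1, Dlg4 (PSD-95), Nsf and Sdcbp, were not called, and Dlg4 had a narrow interval of -0.10 to 0.02. On the same strand, Dlg2 shares 150 exon bases with Gm45131 and 75 with Gm45159, and Pick1 shares 1222 with Gm49486.

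Of the 5 secreted or membrane proteins that cluster the receptors from outside, 1 was called. Nptx1, a neuronal pentraxin, held 91.8 to 97.5 in AD1 OE and 69.8 to 80.0 CPM in Control (log2 fold change 0.33, SE 0.05; edgeR, adjusted p = 9.96e-04), without overlap. The call was lost with the sex score and with the 2-level sex term, at log2 fold changes of 0.31 and 0.31 (adjusted p = 0.00762 and 0.00525). Its receptor gene Nptxr was lower in every AD1 OE library, at 168 to 190 CPM against 199 to 212 CPM, but it passed neither limit (log2 fold change -0.22, adjusted p = 0.00818). Nptxr shares 890 exon bases with Npcd on the same strand. Nptx2, the most abundant per kb of the list in Control, had a log2 fold change of -0.0012.

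**Figure D4:**
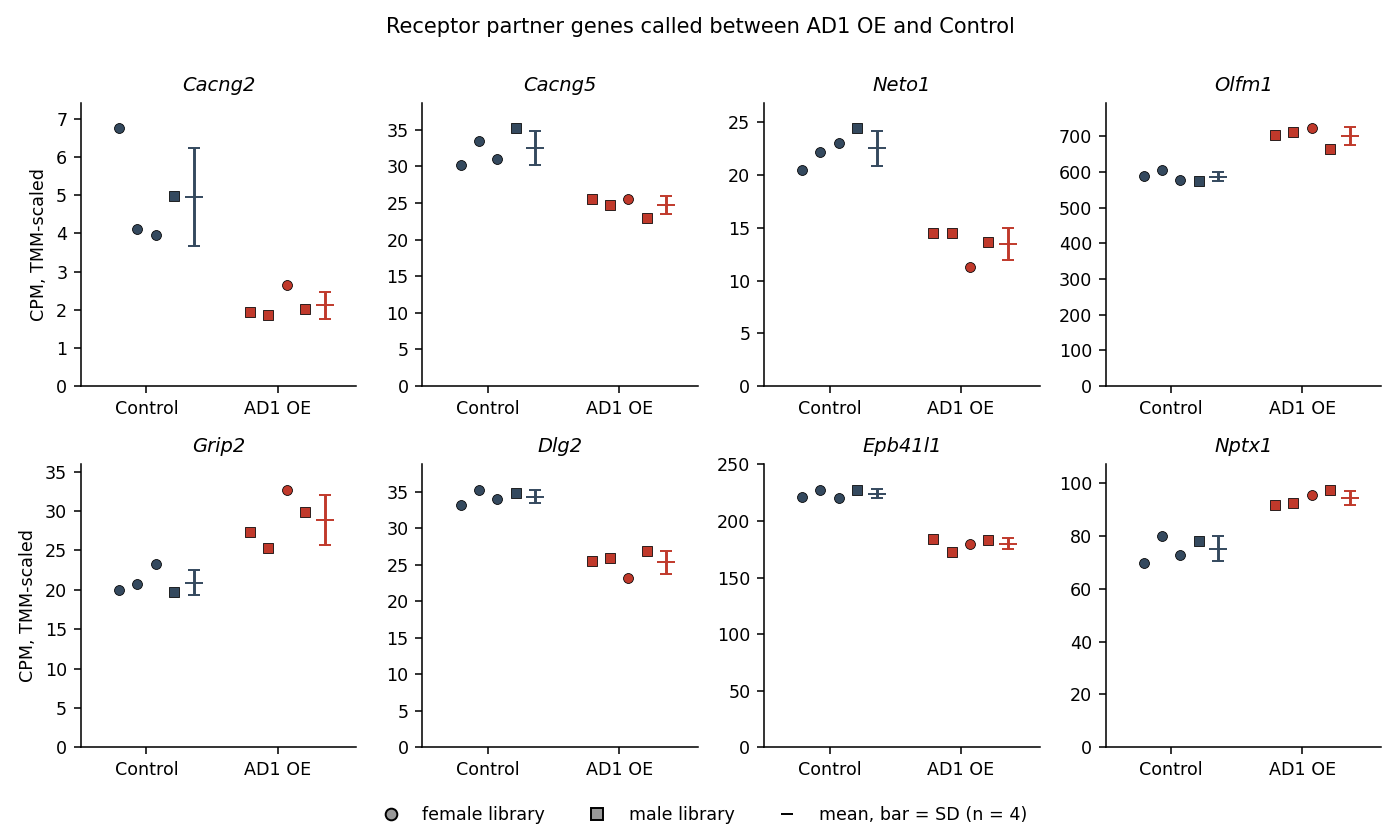
CPM (TMM-scaled, y axis from 0) of the 8 called partner genes in the 4 Control and 4 AD1 OE libraries, each point a library (circles, female; squares, male), with the mean and SD beside the points. In all 8 genes the points of the groups do not overlap, with Cacng2, Cacng5, Neto1, Dlg2 and Epb41l1 lower and Olfm1, Grip2 and Nptx1 higher in AD1 OE.

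None of the 3 editing enzyme genes, the 7 NMDA receptor subunit genes or the 2 delta receptor subunit genes was called by edgeR. At an unadjusted p under 0.05, 1 editing enzyme gene (Adarb2), 2 NMDA receptor genes (Grin2b and Grin3a) and 1 delta receptor gene (Grid1) passed in edgeR. Limma-voom called 0 in each list, and DESeq2 called 1, Grid1. Adarb1, whose product edits the Q/R site printed above, lay at 75.0 to 86.5 in AD1 OE and 72.5 to 81.6 CPM in Control (log2 fold change 0.0079, interval -0.11 to 0.12). Grin1, the obligatory NMDA receptor subunit, whose exons overlap those of Grin1os, lay at 103 to 122 CPM and 110 to 116 CPM (log2 fold change 0.04, interval -0.07 to 0.16). Grin2b held 0.713 to 1.49 in AD1 OE and 4.54, 1.12, 2.28 and 2.09 CPM in Control, highest in Control replicate 1, and its log2 fold change of -1.05 did not pass the test (adjusted p = 0.134). Grid1, a delta subunit gene, was higher in every AD1 OE library, at 10.6 to 11.6 CPM against 7.34 to 9.90 CPM (log2 fold change 0.39, adjusted p = 0.0232), and was also called by edgeR without the expression filter.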

How the data were processed

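The samples were whole DRG of E18.5 embryos, and stranded poly(A) libraries of their RNA were read on an Illumina NovaSeq. Per the study's methods and the submitters' processing notes, the authors aligned the reads to GRCm39 with STAR 2.7.8a and deposited raw counts per Ensembl gene from featureCounts 2.0.1, neither normalised nor filtered, 1 file per library. Whether counting used strand is not given in the sources used here, so genes with overlapping exons are uncertain.

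Groups and replicate numbers came from the labels, which do not name litters, so p-values measure the spread between these libraries. Of 55414 IDs, 52081 had a symbol in GENCODE M21 (GRCm38), which also gave exon lengths and the printed transcript sequences. Counts were fitted in edgeR 4.0.16 (R 4.3.3; filterByExpr, TMM, quasi-likelihood F test, group as the only term, 17721 genes), with DESeq2 1.42.0 and limma 3.58.1 as alternatives. Intervals are 95%. The common biological coefficient of variation was 8.22%. The fit was also run on simulated counts with known changes. Those counts held no sex or tissue differences between libraries, and the outcome is not given here.

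The members and gene lists were chosen with earlier results of these data known. All 9 members are named, and of each partner list the called genes, the most abundant per kb, and a few others that were chosen after their values were seen; likeness to Gria1 was ranked on log2(CPM + 0.5). Sex as a 2-level term was added after the data had been seen.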

Additional observations from a re-analysis of the deposited data

Results flagged for a closer look

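Within groups of 4 libraries, a value was singled out where its gap to the nearest other library was, as a share of the range of the group, above Dixon's 95% limit. Among 34 groups (the 9 members and the 8 called partner genes), 2 values exceeded the limit, and chance gives about 1 in 20. Grik1 in AD1 OE replicate 4 was at 767 CPM, against 685 to 694 CPM in the other 3 AD1 OE libraries. Without that library the log2 fold change of Grik1 was 0.079 in place of 0.11. Grik4 in Control replicate 1 was at 51.3 CPM, against 56.9 to 57.9 CPM in the other 3 Control libraries, and without it the log2 fold change of Grik4 was 0.064 in place of 0.10. Neither gene was called with or without the library.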

How the results depend on the processing

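Gria1 kept its direction in all 18 alternative fits (log2 fold change 0.36 to 0.48, adjusted p 5.32e-09 to 0.00661) and its call in 16. The number of called members, 1 as reported, was 0 with the sex score and 0 with a log2 fold change limit of 1. That of called partner genes, 8 as reported, was 5 with the sex score, 13 with the threshold at an adjusted p of 0.05 and no fold limit and 1 with that fold limit. Of all tested genes, 455 were called as reported, 747 with no expression filter, 1161 with no fold limit, 129 with the fold limit of 1 and 655 with DESeq2. Scaling to the neuron markers moved the split of calls from 139 higher and 316 lower to 170 and 229. Leaving out libraries gave 0 to 1 called members, 4 to 7 called partner genes and 289 to 420 called genes (289 without AD1 OE replicate 1), and 0 called members without Control replicate 2. The cause of these shifts was not tested, beyond fewer samples where a library was left out. The Gria1 share differed by 6.11 to 7.08 percentage points, and 3 members stayed without overlap.

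The correlations of same-numbered deviations were -0.02, -0.06, -0.03 and 0.33 for replicates 1 to 4. Both libraries of replicate 3 were female and both of replicate 4 were male, while those of replicates 1 and 2 differed in sex. Differently numbered libraries were not compared, so these values cannot settle whether libraries shared a litter or batch. With the replicate block, 1 member (Gria1, 0.43), 6 partner genes and 348 genes were called, and Cacng5 (-0.40, adjusted p = 0.0104) and Olfm1 (0.25, adjusted p = 0.0122) lost their calls.

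Estimates near 0 changed sign. With library size only, log2 fold changes were 0.015 for Gria3, 0.0078 for Gria4 and 0.0038 for Grik5. With scaling to the neuron markers they were 0.046 for Gria3, 0.037 for Gria4, 0.0025 for Grik2 and 0.029 for Grik5. With no expression filter Gria3 gave 0.0010. With the sex score Gria2 gave -0.082 and Grik5 0.024, and with the 2-level sex term -0.066 and 0.019. Over the left-out libraries the range was -0.019 to 0.10 for Gria2, -0.034 to 0.045 for Gria3, -0.022 to 0.011 for Gria4, -0.35 to 0.018 for Grik3 and -0.044 to 0.023 for Grik5.

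With 4 libraries per group, intervals reached 0.41 above and 0.76 below 0 for Grik3, while those of Gria2, Gria3, Gria4, Grik2 and Grik5 stayed within 0.20. The spread between libraries exceeded counting error for every member in both groups, except Grik4 in AD1 OE and Gria4 in Control.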
